A study of Caenorhabditis elegans with 2 samples.

Results

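The histone genes of Caenorhabditis elegans were followed through a crosslinking and immunoprecipitation experiment on the RNA-binding protein CAR-1. Members were all table entries whose name is "his-" followed by a number, together with every listed peak that overlaps such an entry by at least 1 base. They came to 61 of 41560 gene names, which stand at 72 separate places in the genome, and to 64 of 77986 peaks in one list and 79 of 105255 in the other. Each library came from 1 strain. CAR-1(FL) is strain CZ25180 and CAR-1(dSm) is strain CZ26430, and RNA was recovered from both with GFP-trap, a single-domain antibody against green fluorescent protein. The part of the protein that dSm concerns, the stage of the animals, their sex and the tissue stand as not given in the sources used here. With 1 library per group, nothing below carries a spread between replicates or a test of the strains, and each value describes these libraries.

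Core histones package DNA. H3 and H4 form a tetramer, H2A and H2B form dimers, and H1 binds the linker DNA between nucleosomes. Worm core histone genes are repeated in many nearly identical copies, mostly grouped in clusters in which neighbouring genes are transcribed apart from each other, and their products are needed in bulk while DNA is copied. In animals the messages of such genes usually end in a stem-loop in place of a poly(A) tail, whereas replacement variants such as H3.3 are made outside S phase as well. CAR-1 belongs to the LSm14 family, whose members bind mRNA in P granules and processing bodies and take part in mRNA storage, translation control and decay. The study, by its title, concerns axon regrowth and mitochondrial calcium, and comparing both forms asks which RNAs are recovered more with one than with the other.

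In both libraries the histone gene his-48 was among the best recovered coding RNAs, and few names carried much of the family's level. FPKM, a fragment number scaled by coding length and by all mapped fragments, summed to 1379.7 over the histone entries with CAR-1(FL) and to 1561.4 with CAR-1(dSm). The number of fragments behind a value follows from the authors' upper bound, and these implied fragments came to 1.63% of all those on protein-coding genes with CAR-1(FL) and 1.89% with CAR-1(dSm). The H2B gene his-48 had the highest level, at 273 FPKM with CAR-1(FL) (238 to 309) and 249.6 FPKM with CAR-1(dSm) (223 to 277). It ranked 5 and 6 among 19355 protein-coding names. Brackets beside an FPKM hold the deposited interval. For a name of several entries, the deposited interval here and below was built from their deposited half-widths. These were added in squares as if the entries were independent. The 5 histone names with the highest FPKM with CAR-1(FL) carried 52.6% of the family's FPKM there and 51.2% with CAR-1(dSm). Abundance of an RNA and its pull-down enter an FPKM together here, as no input library was used, and in bulk material fewer cells of a type and less RNA per cell cannot be told apart.

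Over the names, histone levels leaned slightly toward CAR-1(dSm), with few single genes standing apart. Of the 61 names, 53 reached an FPKM of 1 in at least 1 library, and they were compared by their log2(FPKM + 1), that of CAR-1(dSm) taken from that of CAR-1(FL). None was at least 1 log2 unit higher with CAR-1(FL), where 14.3% of all 4361 names compared were. At least 1 unit higher with CAR-1(dSm) were 6, against 15.2% of all names compared, and the other 47 lay between. The sign was the same for most of them, with 39 lower with CAR-1(FL) and 14 higher, so that 73.6% were lower where 45.5% of all names compared were. Their median difference was −0.26, and that of all names compared was 0.07. Some histone names carry the same values, such as his-27 and his-49, or overlap at the same places, such as his-12 and his-16. Such names are not independent of each other in these counts. The deposited intervals of both libraries stood apart for 1 histone name, his-67, while 5.85% of all names compared had intervals apart. With CAR-1(FL) the FPKM of his-67 was listed at 0, so its interval there had no width. Its interval with CAR-1(dSm) was 0.579 to 10.4.

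The summed level was a little lower with CAR-1(FL). Each FPKM was turned into weighted fragments by dividing it by the FPKM that 1 fragment gives at that coding length, which counts a read shared between copies as a part of 1. The histone entries held 1213 weighted fragments with CAR-1(FL) and 2075 with CAR-1(dSm). Scaled by the tables' own normaliser, under which 1 fragment with CAR-1(FL) counts as 1.53 with CAR-1(dSm), the ratio of CAR-1(FL) over CAR-1(dSm) was 0.897, with an exact 95% interval of 0.835 to 0.963. Intervals of this kind cover counting error only and say nothing of how 2 cultures of 1 strain would differ.

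**Figure D1:**
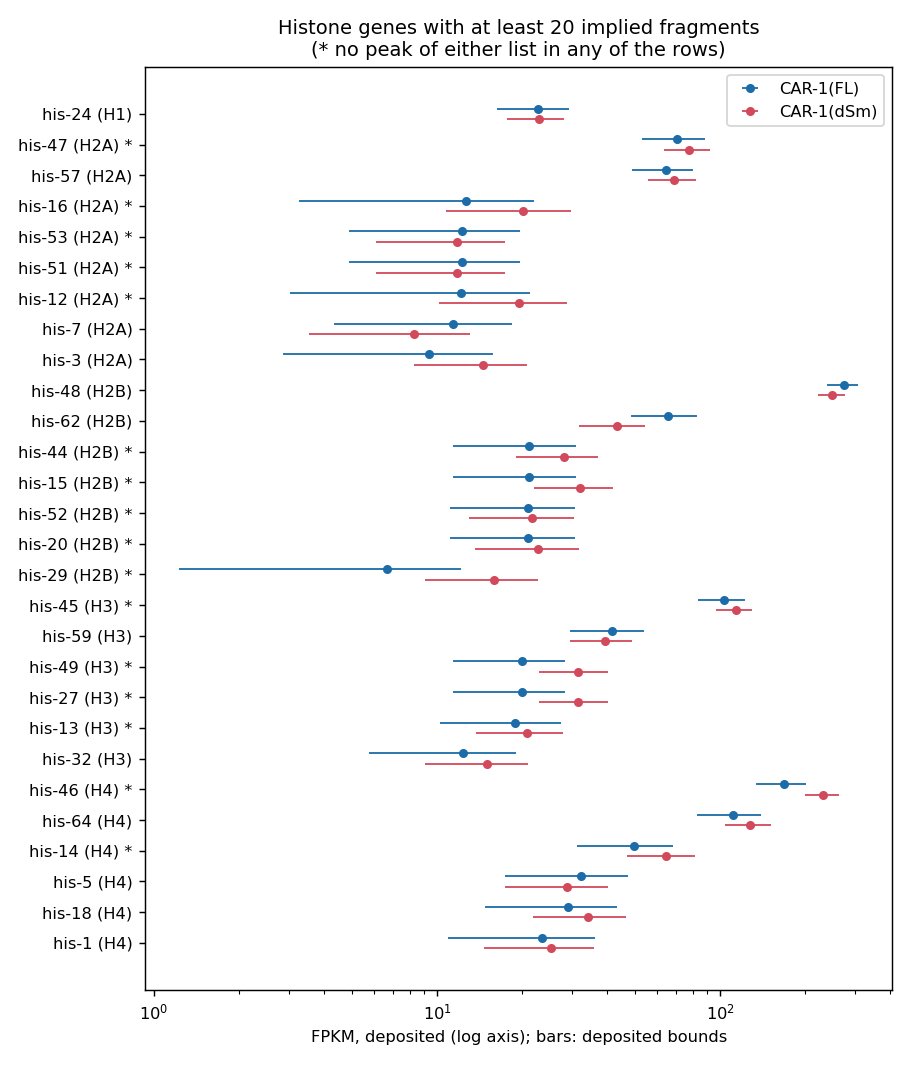
Deposited FPKM (log axis), summed over the entries of a name, of the histone names with at least 20 implied fragments over both libraries, grouped by histone class. CAR-1(FL) is in blue and CAR-1(dSm) in red. Bars show the deposited bounds, with half-widths added in squares for names of several entries. A star marks names without a peak in any entry. The H2B gene his-48 lies highest at 273 and 249.6 FPKM, and the intervals of both libraries overlap for every name drawn.

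Among the H2B genes, his-62 was the clearest case of a higher level with CAR-1(FL). Its FPKM was 65.6 with CAR-1(FL) (48.4 to 82.8) and 43.1 with CAR-1(dSm) (31.8 to 54.4). The intervals overlap although the level was 1.52-fold higher. The H2B gene his-29 went the other way, with 6.68 FPKM with CAR-1(FL) (1.23 to 12.1) and 15.8 FPKM with CAR-1(dSm) (9.03 to 22.6). That is 2.37-fold higher with CAR-1(dSm), again with overlapping intervals. The H2B name his-54, given to 4 entries, had a summed 1.57 FPKM with CAR-1(FL) and 9.99 FPKM with CAR-1(dSm), 6.38-fold higher, on 1.81 and 17.7 weighted fragments. Its intervals, built from those of its entries (0 to 3.90 and 3.84 to 16.1), overlap. Each of its entries overlaps one of his-52 or his-20, and with all names added those 4 places had 43.5 and 54.5 FPKM, or 1.25-fold more with CAR-1(dSm). The H2B names his-15 and his-44 stood at 21.1 FPKM each with CAR-1(FL), against 31.9 and 28.1 with CAR-1(dSm). The H2B names his-20 and his-52 stood at 21.0 FPKM each, against 22.7 and 21.7. Over the class, 20 entries gave a ratio of 0.985 with an interval of 0.868 to 1.12, so the class as a whole lay close to even while its members spread to both sides.

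Among the H2A genes, which make the partner of H2B, most levels were close. The name his-47 had 70.7 FPKM with CAR-1(FL) and 77.9 with CAR-1(dSm). The gene his-57 had 64.6 FPKM and 68.8 FPKM. Lower with CAR-1(FL), with overlapping intervals, were his-12 at 12.1 against 19.5 FPKM, his-16 at 12.7 against 20.2 FPKM and his-3 at 9.34 against 14.5 FPKM. Slightly higher there were his-7 at 11.4 against 8.31 FPKM and the pair his-51 and his-53, which carried 12.2 against 11.7 FPKM each. The H2A gene his-68 had 4.08 FPKM with CAR-1(FL) (0 to 8.16) and 9.97 FPKM with CAR-1(dSm) (4.77 to 15.2), a 2.45-fold higher level with CAR-1(dSm) on 4 and 15 weighted fragments. The class ratio was 0.892 (0.752 to 1.06).

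Among the H3 genes, his-45 led with 103 FPKM with CAR-1(FL) and 114 with CAR-1(dSm). The gene his-59 followed with 41.6 and 39.2 FPKM. The names his-27 and his-49 shared 1 value, 19.9 FPKM with CAR-1(FL) (11.4 to 28.4) and 31.5 FPKM with CAR-1(dSm) (22.9 to 40.1). The name his-13 had 18.8 and 20.8 FPKM and his-32 had 12.4 and 15 FPKM. The class ratio was 0.864 with an interval of 0.742 to 1.01.

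H4, which pairs with H3 in the tetramer, was the class in which the interval of the ratio lay wholly below 1. Its ratio was 0.799 (0.685 to 0.931). The name his-46 had 168 FPKM with CAR-1(FL) (134 to 202) and 231 FPKM with CAR-1(dSm) (199 to 264). The gene his-64 had 111 and 127 FPKM, and his-14 had 49.6 and 64.3 FPKM. The genes his-18 at 29 against 34.2 FPKM and his-1 at 23.5 against 25.2 FPKM were also a little lower with CAR-1(FL), and his-5 was a little higher at 32.4 against 28.8 FPKM. The H4 gene his-67 was listed at 0 FPKM with CAR-1(FL) and at 5.48 FPKM with CAR-1(dSm), on 5 weighted fragments. That listed 0 did not mean that no read was found there, because a peak inside his-67 held 33 reads from CAR-1(FL) and 31 from CAR-1(dSm).

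The linker histone gene had nearly the same FPKM in both libraries, and the FPKM of the replacement genes rested on few fragments. The linker histone gene his-24 had 22.7 FPKM with CAR-1(FL) (16.3 to 29.2) and 22.9 FPKM with CAR-1(dSm) (17.7 to 28.1). Its ratio was 0.991 (0.683 to 1.44). The H3.3 gene his-72 had 5.91 FPKM and 6.75 FPKM, and the H3.3 gene his-71 had 1.77 and 1.15 FPKM. The H3.3-like gene his-74 was listed at 0 with CAR-1(FL) and at 0.577 FPKM with CAR-1(dSm). The replacement genes together had a ratio of 0.906 (0.355 to 2.24) on 8.75 against 14.8 weighted fragments, too few to place them. The neighbouring H3.3-like genes his-69 and his-70 were listed at 0 in both libraries and had no peak.

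**Figure D2:**
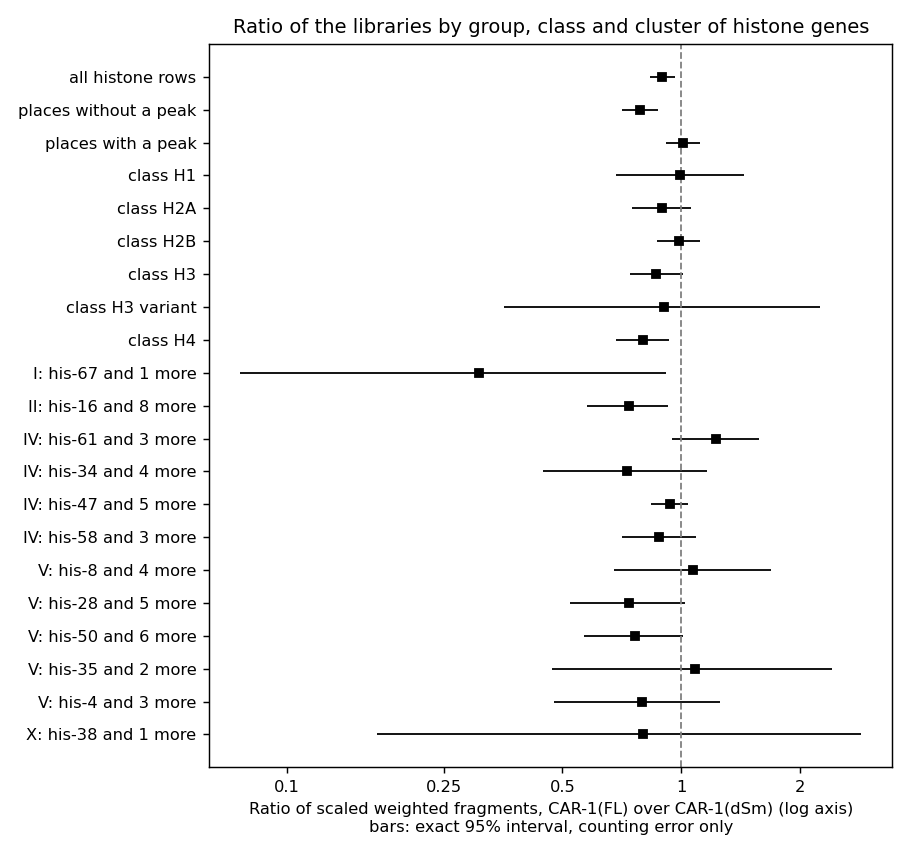
Ratio of scaled weighted fragments, CAR-1(FL) over CAR-1(dSm), on a log axis, for all histone entries, for places with and without a peak, and for each class and cluster, with exact 95% intervals for counting error; the dashed line marks a ratio of 1. All entries lie at 0.897, places with a peak at 1.01 and places without one at 0.787.

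The copies are grouped along the chromosomes. A sum over a cluster is free of the division of shared reads only where the like copies lie in that cluster. Entries within 20000 bases of each other formed 13 clusters of at least 2 places, and 5 places stood alone (his-24, his-71, his-72, his-73 and his-74). Coordinates are those of ce10, the build named in the submitters' processing notes. Most core histone entries have the coding length usual for their class. Some are longer, such as those of the H2A genes his-57, at 1084 bases, and his-35, at 516. The cluster with the highest level lies on chromosome IV from 11324034 to 11341473 and holds his-47, his-48, his-46, his-45, his-66 and his-57. It summed to 619 FPKM with CAR-1(FL) and 678 FPKM with CAR-1(dSm), a ratio of 0.936 with an interval of 0.839 to 1.04. The next on chromosome IV, from 11400393 to 11407405 with his-58, his-47, his-63 and his-64, gave 186 and 212 FPKM and a ratio of 0.879 (0.710 to 1.09).

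2 clusters had an interval wholly below 1. The cluster on chromosome II from 13817691 to 13828628, with 13 places named his-10, his-12 to his-16 and his-42 to his-44, had 137 FPKM with CAR-1(FL) and 187 FPKM with CAR-1(dSm), a ratio of 0.738 with an interval of 0.578 to 0.925. The cluster on chromosome I from 9988442 to 9989505 consists of his-67 and his-68, and its ratio of 0.307 (0.0762 to 0.916) rested on 4 weighted fragments against 20. The cluster on chromosome IV from 7485823 to 7488648, with his-59 to his-62, was highest relative to CAR-1(dSm), at 119 against 97.5 FPKM and a ratio of 1.23, but its interval of 0.95 to 1.58 included 1.

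The remaining clusters had intervals that included 1. On chromosome V they were the 5 genes from 8532694 to 8536694 with his-5 to his-8 and his-39, at 1.07 (0.676 to 1.69), the group from 8847371 to 8854031 with his-27 and his-28, at 0.736 (0.522 to 1.02), and the group from 8889466 to 8898517 with his-17, his-18, his-49 and his-50, at 0.763 (0.568 to 1.01). Further along chromosome V lay his-35, his-37 and his-41, from 9544744 to 9547495, at 1.08 (0.472 to 2.41), and his-1 to his-4, from 16040124 to 16042811, at 0.797 (0.477 to 1.25). On chromosome IV the group from 8331031 to 8336327 with his-29 to his-32 and his-34 stood at 0.730 (0.447 to 1.16). On chromosome X his-38 and his-40, from 7309519 to 7310474, stood at 0.800 (0.169 to 2.86) on 4 against 7.66 weighted fragments. Indistinguishable copies also lie in different clusters. On chromosome V 5 places of the group with his-27 and his-28 had the values of 5 in the group with his-49 and his-50, and both groups together gave 0.751 (0.602 to 0.929). On chromosome IV 2 places of the cluster with his-48 had the values of 2 in the next one, and together they gave 0.924 (0.839 to 1.02). The pair his-69 and his-70 on chromosome III, from 4058335 to 4060094, had no fragments.

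Copies that the tables could not separate were a large part of the family. At 22 of the 72 places the FPKM was above 0 in at least 1 library and identical to the last digit, in both libraries, to that of another place, and 3 further places were listed at 0 in both. The duplicated stretches on chromosome V give examples, since his-27 and his-49 had the same 19.9 and 31.5 FPKM, and his-28 and his-50 the same 1.26 and 3.01 FPKM. Of these 22 places 1, his-63, had a peak in either list, against 30 of the 50 others. The repeated places had a ratio of 0.752 (0.614 to 0.917) and the others one of 0.922 (0.853 to 0.995). Among histone entries that reached an FPKM of 5 in at least 1 library, 24 of 43 had no peak, which is 55.8%, and among all protein-coding entries of that level 6.89% had none. The H4 name his-46 is such a case, with 168 and 231 FPKM and no peak at any of its entries.

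The summed ratio lay lower at the places without a peak. The 41 places without a peak had a ratio of 0.787 (0.708 to 0.874). The 31 places with a peak had a ratio of 1.01 (0.915 to 1.11), and one of 0.967 (0.855 to 1.09) without his-48, the entry with the most fragments. Single entries leaned to CAR-1(dSm) in both groups, with 35 lower with CAR-1(FL) and 11 higher where no peak was listed, and 19 lower and 11 higher where one was. The names with a peak kept a median difference of −0.14 in their entries, and 4 of them were at least 1 unit higher with CAR-1(dSm). For H4 the places without a peak gave 0.728 (0.585 to 0.896) and those with one gave 0.890 (0.712 to 1.12). For H2B they gave 0.699 (0.540 to 0.893) and 1.12 (0.971 to 1.31). For H3 they gave 0.820 (0.682 to 0.985) and 0.993 (0.730 to 1.33). For H2A both groups were alike within their error, at 0.879 and 0.908. No source used here says how reads that match several copies were counted, and the part of that rule in these values was not tested. With 1 library per group the gap between both kinds of place has no test, and the split was chosen after the data were seen.

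The authors' deposited table of the comparison treated the copies differently. According to the authors' deposited table, 15 of the 53 histone names compared were listed at 0 in both libraries, which is 28.3%, against 3.7% of all names compared that it holds. Of all 61 names, 21 were listed at 0 in the authors' deposited table, and 18 of these had an FPKM above 0 in the per-library tables. Of the 12 names found at repeated places alone, 11 were among the 21, and of the other 49 names 10 were. The H3 name his-27, at 19.9 and 31.5 FPKM in the per-library tables, is one of them. In the authors' deposited table no gene of any kind was marked significant, and the lowest q-value of a histone name was 0.669. The summed ratio over the histone names in the authors' deposited table was 0.938.

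The peaks gave a second reading of the same genes. Peaks were short, with a median width of 48.5 bases in the CAR-1(FL) list and 48 in the CAR-1(dSm) list, and each carries the authors' log2 fold of its own library over the other and a −log10 p. Most histone peaks recurred in both lists. Of the 64 in the CAR-1(FL) list, 56 overlapped a peak of the other list on the same strand, or 87.5% where the whole list had 69.3%. Of the 79 in the CAR-1(dSm) list, 63 did, or 79.7% where the whole list had 53.5%. Overlapping peaks of both lists count largely the same reads and are no independent readings of each other.

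No histone peak passed a −log10 p of 3 together with a log2 fold of 3 in either list. The share of all peaks that did was 0.0167% in the CAR-1(FL) list and 0.119% in the CAR-1(dSm) list. Weaker folds leaned toward CAR-1(dSm). In the CAR-1(FL) list 18 of 64 histone peaks had a log2 fold above 0, or 28.1% beside 50.3% of all its peaks. In the CAR-1(dSm) list 63 of 79 did, or 79.7% beside 70.1% of all its peaks. With every fold expressed as CAR-1(FL) relative to CAR-1(dSm), the median over the 143 histone peaks was −0.32, and over all peaks it was −0.21.

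The authors' folds use another scaling than the FPKM. They are relative to total reads that stand at 1.36 to 1 for CAR-1(dSm) over CAR-1(FL), against 1.53 to 1 for the FPKM, and this alone moves each log2 fold by 0.17. On the authors' scaling 109 of the 143 histone peaks leaned to CAR-1(dSm), or 76.2% where 61.4% of all peaks did. Moved to the scaling of the FPKM, 90 did, or 62.9% beside 51.6%, and the medians became −0.15 and −0.04. The lean of the histone peaks beyond that of all peaks was thus present on both scalings, and its size depended on which is used.

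**Figure D3:**
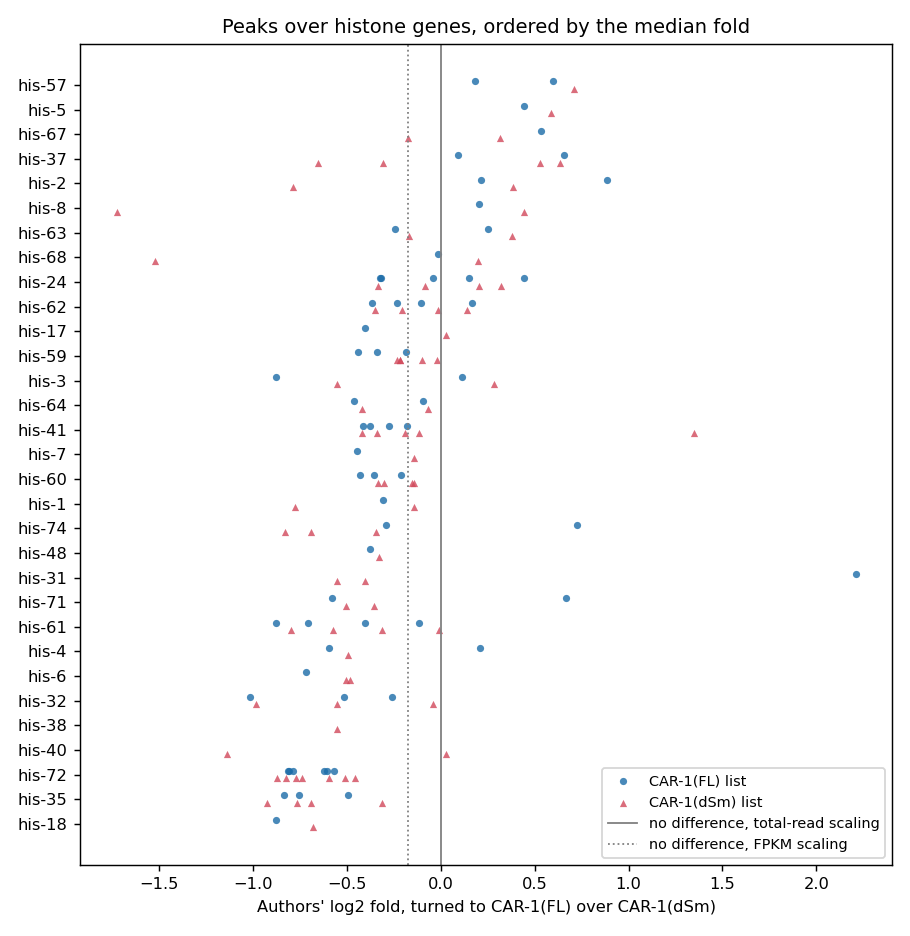
Authors' log2 fold of every histone peak, as CAR-1(FL) relative to CAR-1(dSm), by gene and ordered by the median, with circles for the CAR-1(FL) list and triangles for the CAR-1(dSm) list; the solid line marks no difference on the authors' scaling and the dotted line no difference on that of the FPKM. All 13 peaks of his-72 lie to the left of both lines.

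The H3.3 gene his-72 had the most peaks of the histone genes. All 13 of its peaks were higher with CAR-1(dSm), on either scaling, with a median log2 fold of −0.74 and a range from −0.87 to −0.46. Its most 3′ peak, on chromosome III from 12367564 to 12367639 on the minus strand, had the highest −log10 p of the histone peaks in the CAR-1(dSm) list, 3.73, with 61 reads with CAR-1(FL) and 147 with CAR-1(dSm). The peak from 12367857 to 12367932 had 41 against 102 reads and a −log10 p of 2.91. The peak from 12367775 to 12367856 had 71 against 146 reads and a −log10 p of 2.30. The 13 peaks lie between 19 and 502 bases past the start of a 510-base entry, so that they leaned one way over nearly the whole entry. The FPKM of his-72, 5.91 and 6.75, rested on 6.75 and 11.8 weighted fragments, fewer than the reads of any of these 3 peaks. A lean in every peak on either scaling was not particular to his-72. The H2A gene his-35 had it in 7 of 7 peaks, with a median of −0.75, and his-18 in 2 of 2, with −0.78.

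The other replacement genes had peaks as well. Over his-71, his-72 and his-74 together 20 of 22 peaks leaned to CAR-1(dSm) on either scaling, with a median of −0.60 on the authors'. Of these 22 peaks 13 were those of his-72, and a stretch listed in both libraries is counted with each list. The gene his-71 had 4 peaks, 3 of which leaned that way, the deepest with recovered read numbers holding 31 and 54 reads. In his-74, listed at 0 and 0.577 FPKM, 4 of 5 peaks leaned that way. Its peak from 12660247 to 12660287 on chromosome V (minus strand) went the other way, with 28 against 23 reads, a log2 fold of 0.73 and a −log10 p of 1.02. The linker gene his-24 had peaks on both sides, with 5 of 9 toward CAR-1(dSm) and a median of −0.04, and 3 of 9 on the scaling of the FPKM. Its peak from 14490504 to 14490553 on chromosome X (plus strand) held 52 reads in each library.

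**Figure D4:**
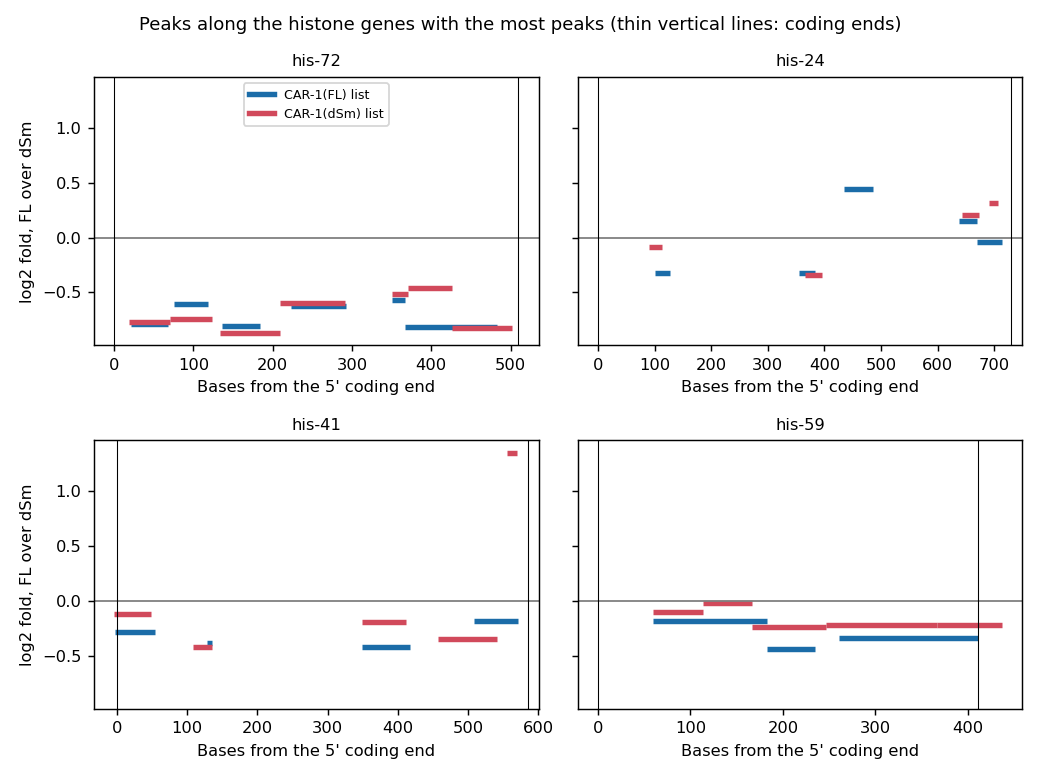
Peaks along the 4 histone genes with the most peaks, each drawn as a bar from its first to its last base, counted from the 5′ end of the entry. The height is the log2 fold of CAR-1(FL) over CAR-1(dSm), with blue for the CAR-1(FL) list and red for the CAR-1(dSm) list. Peaks of his-72 stay between −0.87 and −0.46 over nearly the whole entry, while those of his-24 lie on both sides of 0.

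The highest −log10 p was read in each list by itself, where it falls on folds toward that list's own library, so the directions that follow were set by the choice. The H4 gene his-31 held the highest −log10 p of the CAR-1(FL) list, 2.71, in a peak on chromosome IV from 8333878 to 8333948 (minus strand) with 17 reads against 5 and a log2 fold of 2.21. The gene itself was listed at 0 FPKM with CAR-1(FL). The H4 gene his-37 had a peak on chromosome V from 9547113 to 9547199 (plus strand) with 51 against 44 reads, a log2 fold of 0.66 and a −log10 p of 1.48. The H3 gene his-2 had a peak with 19 against 14 reads and a log2 fold of 0.88. In the CAR-1(dSm) list, the H2A gene his-68 had a peak on chromosome I from 9989248 to 9989325 (plus strand) with 11 against 43 reads, a log2 fold of 1.52 over CAR-1(FL) and a −log10 p of 2.76. The H2A gene his-61 had one with 30 against 71 reads and a −log10 p of 1.88.

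Several genes leaned one way in every peak on the authors' scaling. The H2A gene his-35 had 7 of 7 peaks toward CAR-1(dSm) with a median of −0.75, his-61 had 8 of 8 with −0.49 and his-32 had 6 of 6 with −0.54. On the scaling of the FPKM these counts became 7, 6 and 5. The H2A gene his-57 had 3 of 3 and the H4 gene his-5 had 2 of 2 toward CAR-1(FL) on either scaling, with medians of 0.60 and 0.52. The peaks of his-57 lie where its entry overlaps that of the kinesin gene klp-12, and those with recovered read numbers held at most 10 and 9 reads. By class, 21 of 27 peaks over H2A genes, 19 of 25 over H2B, 22 of 29 over H3 and 22 of 31 over H4 leaned to CAR-1(dSm), with medians of −0.45, −0.24, −0.24 and −0.21. Of all peaks 61.4% leaned that way. On the scaling of the FPKM the counts were 17, 16, 18 and 16, or 63%, 64%, 62.1% and 51.6%, beside 51.6% of all peaks, so H4 peaks were at the background there.

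In the chromosome IV cluster of his-59 to his-62, peaks and FPKM pointed different ways. Its ratio of weighted fragments was 1.23 toward CAR-1(FL), while 29 of its 31 peaks leaned to CAR-1(dSm), with a median of −0.24. On the scaling of the FPKM 21 of the 31 still did, with a median of −0.06. In his-62, whose FPKM was 1.52-fold higher with CAR-1(FL), the peak from 7486860 to 7486939 (plus strand) held 75 reads from CAR-1(FL) and 130 from CAR-1(dSm). The weighted fragments of his-62 were 59.2 and 59.7. Peaks and FPKM also differed in the chromosome I cluster of his-67 and his-68, with its ratio of 0.307. On the scaling of the FPKM, 3 of 3 peaks of his-67 and 2 of 3 of his-68 leaned to CAR-1(FL). On the authors' scaling 2 of 3 and 1 of 3 did.

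By the rule for members every histone peak overlaps an entry, so that most lay inside it was set by the choice. Peaks wholly outside an entry were not members. In the CAR-1(FL) list 4 histone peaks ran past the 3′ end of the entry, by up to 25 bases. In the CAR-1(dSm) list 6 did, by up to 34 bases. Within 100 bases downstream of a gene with peaks, each list had 5 more peaks on the same strand. Along genes of the usual coding length of their class, divided into 3 equal parts, peak centres in the first, the middle and the last part numbered 11, 12 and 15 in the CAR-1(FL) list and 11, 17 and 19 in the CAR-1(dSm) list. The stem-loop of core histone messages lies past the coding end, in a stretch that entries of the usual coding length do not cover.

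The level in the tables depended on the strand of the peaks, and this bears on every FPKM above. All 31 places with peaks had them on 1 strand. Taking that strand as the gene's own, 12 neighbouring pairs are transcribed away from each other, with 234 to 368 bases between the entries. In 12 of 12 such pairs the plus-strand gene had the higher FPKM, in either library. The plus-strand members summed to 348 FPKM with CAR-1(FL) and 358 with CAR-1(dSm), and their minus-strand partners to 24.8 and 37.7. No such gap showed in the peaks, as far as their reads could be recovered. Read numbers exist only for peaks with a −log10 p of at least 0.1. A gene's deepest peak, here and below, is the deepest of those. Peaks near no difference are left out and may be deeper. By the deepest peak, the plus-strand member had more reads in 5 of the 10 pairs with read numbers with CAR-1(FL). With CAR-1(dSm) it had more in 6 of 10. The sums were 410 against 305 reads and 701 against 504. The plus-strand genes held 53 peaks and the minus-strand genes 48.

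Single pairs give examples, with the same limit on the reads. The plus-strand H4 gene his-64 had 111 FPKM with CAR-1(FL), and its partner his-63, an H3 gene, had 3.10 FPKM. Their deepest peaks with read numbers held 33 and 32 reads. The plus-strand H3 gene his-59 had 41.6 FPKM and its H4 partner his-60 had 6.72 FPKM, with 124 and 81 reads in such peaks. In the pair his-3 and his-4, FPKM with CAR-1(FL) was 9.34 on the plus strand and 0.273 on the minus strand. Their deepest peaks with read numbers held 17 and 37 reads, so the order was turned among these peaks. Further peaks of all these genes gave no read numbers and may be deeper.

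**Figure D5:**
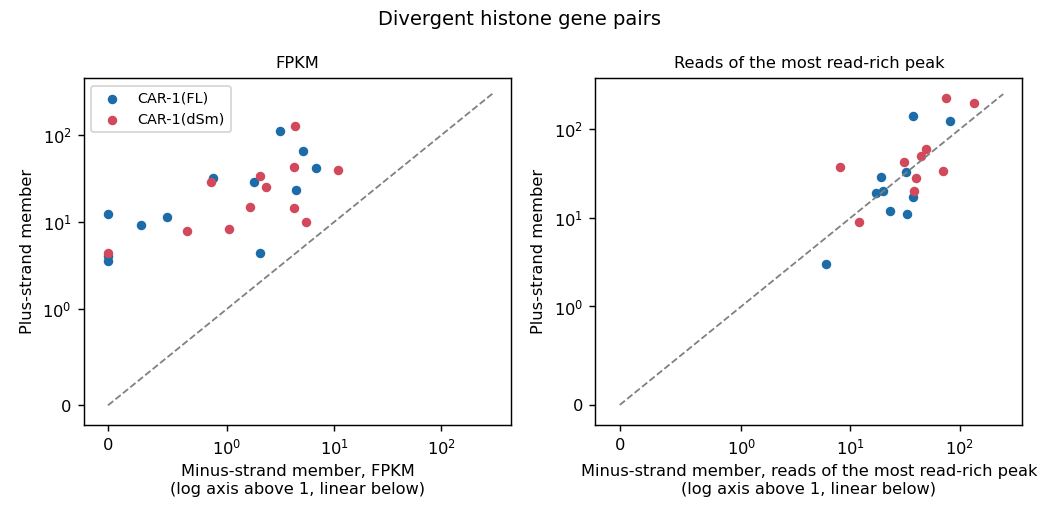
FPKM (left) and reads of the deepest peak with read numbers (right) of the minus-strand member (horizontal axis) and the plus-strand member (vertical axis) of divergent histone gene pairs. CAR-1(FL) is in blue and CAR-1(dSm) in red. Axes are logarithmic above 1 and linear below, and the dashed line marks equal values. For FPKM all 12 pairs lie above the line in both libraries, whereas for peak reads they lie on both sides of it.

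The same gap was found outside the histones. Protein-coding genes with 1 entry and at least 6 peaks, all on 1 strand, numbered 3624 on the plus strand and 3645 on the minus strand. Both groups had a median of 13 peaks, but their medians of implied fragments were 4.31 and 0.891 with CAR-1(FL) and 6.96 and 1 with CAR-1(dSm). An FPKM of 1 in at least 1 library was reached by 57.1% of the plus-strand genes and 12.8% of the minus-strand genes. The median difference between libraries among those was 0.08 and 0.11. The cause was not tested. An FPKM near 0 at a minus-strand gene thus does not say that its message was missing. Split the same way, histone places with plus-strand peaks had a ratio of CAR-1(FL) over CAR-1(dSm) of 1.04 (0.931 to 1.15). Places with minus-strand peaks had 0.883 (0.686 to 1.14), on 99.7 and 173 weighted fragments. Of these, his-57 alone held 67.7 and 111. Its peaks lie where its entry overlaps klp-12, so their strand need not be that of his-57.

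Reads in peaks and fragments behind FPKM were also set side by side. At 29 places read numbers could be recovered from some of the peaks. At 23 of these the deepest such peak held more reads than the weighted fragments of the whole place, in each library. The exceptions, where a peak without read numbers may be deeper, include his-48. It had 247 and 345 weighted fragments and 52 and 89 reads in its deepest peak with read numbers.

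Genes whose products work with histones were read from the same tables, many on few fragments. Of 8 genes for linker histone-like proteins, 5 had an FPKM of at least 1, all within 1 log2 unit, with a median of 0.14. They included hil-5 at 19.9 against 17.7 FPKM, hil-2 at 13.8 against 12.7, hil-4 at 12.6 against 11.4, hil-3 at 6.43 against 5.59 and hil-7 at 15.9 against 22.9, the last on 0.0432 and 1.70 implied fragments. The H2A.Z gene htz-1 had 25.9 FPKM with CAR-1(FL) and 25.6 with CAR-1(dSm). Of the centromeric H3 genes, cpar-1 was past 1 unit, at 1.55 against 0.203 FPKM, and hcp-3 was at 0 and 0.178 FPKM.

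Of 9 histone chaperone genes, which load histones onto DNA, 5 were compared, none past 1 unit, with a median of 0.25, and spr-2 was 2.30-fold higher with CAR-1(FL) at 2.95 against 1.28 FPKM. Of 6 genes for the 3′ end and the decay of histone messages, 3 were compared, none past 1 unit, with a median of −0.34. They included cdl-1, the stem-loop binding protein, at 3.21 against 4.31 FPKM, and smg-2, a nonsense-mediated decay helicase, at 1.20 against 2.19 FPKM. The gene csr-1 went the other way, at 3.22 against 2.20 FPKM. Of 18 S-phase genes, 7 were compared, none past 1 unit, with a median of 0.04, and mcm-7, a subunit of the replicative helicase, had 4.71 and 4.54 FPKM. At lower levels, where the added 1 holds the difference down, tyms-1 had 1.23 against 0.320 FPKM and pcn-1, the replication clamp, 0.615 against 1.40. None of the genes compared in these 5 lists had deposited intervals apart.

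Tissue markers were read beside the family because histone messages are made mostly where cells divide. All 6 germline markers had an FPKM of at least 1 and lay within 1 unit, summing to 31.3 FPKM with CAR-1(FL) and 24.9 with CAR-1(dSm), with pos-1 at 12.9 against 8.38 and mex-3 at 6.74 against 5.63. Only gld-1 among them was lower with CAR-1(FL), at 2.73 against 3.96, and glh-1 was close, at 4.57 against 4.38. All 3 sperm markers compared, of 4, were past 1 unit toward CAR-1(FL), summing to 7.39 against 0.391 FPKM, with msp-3 and msp-142 listed at 0 with CAR-1(dSm), spe-11 listed at 0 with CAR-1(FL) and msp-152 at 5.35 against 0.222. They rested on 5.88 against 1.11 implied fragments. Of 4 neuron markers 3 were compared, and 1, egl-3, was past 1 unit toward CAR-1(dSm), with sums of 4.87 and 8.38 FPKM. The values of egl-3 rested on 4.58 against 34 implied fragments. Also compared were flp-12, at 2.94 against 3.83 FPKM, and unc-31. They rested on 0.463 against 1.27 and 0.0759 against 0.300 implied fragments.

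Muscle markers summed to 14.6 and 10.7 FPKM, with unc-54 at 8.34 against 6.90 and unc-89 at 5.24 against 3.11. Epidermis markers summed to 49.3 and 34.2 FPKM, with col-19 at 41 against 29.7 and rol-6 at 8.14 against 4.33. Intestine markers summed to 271 and 266 FPKM, with vit-2 at 124 against 138 and vit-6 at 146 against 128, and ges-1 was listed at 0 with CAR-1(dSm). None of the muscle, epidermis and intestine markers was past 1 unit. The deposited intervals stood apart for unc-89, vit-2 and vit-6, and for egl-3 among the neuron markers. The part of tissue makeup in the histone values was not tested.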

How the data were processed

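The series measured RNA recovered with CAR-1 by seCLIP-seq in 2 libraries, 1 per group, from sample titles. STAR, cutadapt, UMI-tools, SAMtools and the build ce10 were used, without stated versions or roles, per the submitters' processing notes. Peak caller, annotation and multi-mapping rule: not given in the sources used here. FPKM were deposited per library with bounds 2 standard errors away, in the Cufflinks column layout per the file headers. The authors' deposited peak lists hold a −log10 p, capped at 400, and a log2 fold of 1 library over the other. The authors' deposited Cuffdiff table holds FPKM, a log2 fold, a p-value, a q-value and a test score, the last unused here. Implied fragments on all entries came to 233959 (CAR-1(FL)) and 369072 (CAR-1(dSm)).

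Entries of 1 name were summed, half-widths in squares. Differences were log2(FPKM + 1), over names that reached an FPKM of 1 in at least 1 library; at least 1 unit counted as higher. Ratios of weighted fragments carry exact 95% intervals (Clopper-Pearson, conditional binomial) for counting error. Peak reads were recovered from fold and p, by whole numbers under a chi-square with Yates' correction, or a binomial test for numbers under 5 (relative tolerance 0.003), for 14 of 14 and 52 of 52 histone peaks with a −log10 p of at least 0.1. Fragment and read recovery were tested on simulated data. No p-value was computed. Histone classes follow worm nomenclature, not a product table. Of 71 core histone entries, 66 had a length shared by at least 3 entries of their class. The names his-39 and his-73 were left without a class. Symbols and gene types came from a RefSeq table of assembly WBcel235, where 72 histone symbols are listed, 11 of them unused as names in the files. Genes named: at least 20 implied fragments over both libraries; past 1 unit with an FPKM of at least 5; linker and replacement genes; every cluster; the 5 highest −log10 p per peak list; other lists' genes with an FPKM of at least 5. Others named were chosen after their values were seen. Members and lists were chosen with earlier results of these data known. Python, pandas, NumPy, SciPy and matplotlib were used.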

Additional observations from a re-analysis of the deposited data

How the results depend on the processing

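Of 159 alternative values, 143 stayed within the main value's interval or 1.5 times its count, 15 moved and 1 reversed. Some of the 143 could not differ, since a cluster left whole at 5000 bases kept its main value. So did H1 and the replacement genes at places with a peak, which held all their fragments. In the gene lists the interval of a median was the range of the genes compared. The number that stayed is thus no measure of how firm the results are. The summed ratio of 0.884 in FPKM turned to 1.03 at plus-strand places and moved to 0.775 at places without a peak. At a pseudocount of 0.1 or 0.5, 1 name, his-35, was past 1 unit toward CAR-1(FL), where none was. Its FPKM rested on 2 against 1 weighted fragments, and 7 of its 7 peaks leaned to CAR-1(dSm) on either scaling. The H2A ratio fell to 0.622 with the authors' deposited table, the H2B ratio rose to 1.13 at places with a peak, and 1 part of the large chromosome IV cluster, at 5000 bases, stood at 0.772. The median peak fold was −0.77 at a −log10 p of at least 1, which only folds toward the listing library can reach, and −0.15 on the scaling of the FPKM. Summed read support was 1173 and 1997 implied fragments over all 72 places. The deepest peaks among those with read numbers held 1025 and 1702 reads at the 29 places that had such peaks, where weighted fragments were 658 and 1003. At a pseudocount of 0.1 the medians of variant histones and sperm markers became 1.23 and 3.48, and 1 chaperone gene and 1 S-phase gene passed 1 unit toward CAR-1(FL) and 1 S-phase gene toward CAR-1(dSm). Splits by peak and strand, leaving out his-48, joined clusters, moved scaling and protein-coding scaling were chosen after seeing the data. The cause of these moves was not tested. Depth limits single genes, since the histone names compared rested on 24.7 implied fragments at the median, both libraries added. No paired analysis was possible because each group has 1 library.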
